A study of Rattus norvegicus with 12 samples.

Results

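The genes described here are 9 enzymes of the citric acid cycle and its isocitrate dehydrogenase step: Idh3a, Idh3b, Idh3g, Idh1, Idh2, Cs, Ogdh, Mdh2 and Suclg1. Their transcripts were read on Affymetrix rat Gene ST arrays from whole ganglionic eminence, the embryonic source of the striatum, on embryonic day 14. The group was chosen by the measured genotype difference of Idh3g, which was higher in transgenic embryos, so that difference is given as a description and is not tested. A gene was measured where a probe set was annotated with its symbol alone, and the probe set with the highest mean stood for it. All 9 genes were measured, by 10 probe sets, out of 14506 genes and 29214 probe sets on the array. Of the 12 embryos, 6 were homozygous for BACHD and 6 were wild type. BACHD is a transgene for the whole human huntingtin protein in its mutant form, with 96 CAG repeats, named for the bacterial artificial chromosome that carries it. All embryos came from 3 time-bred dams and were collected in 1 day; the dams carried the transgene, so both groups developed in transgenic mothers. Each array held RNA from the medial and lateral eminences of 1 embryo. The dam and the sex of each embryo were not in the labels.

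The citric acid cycle runs in the mitochondrial matrix, where it oxidises acetyl groups to carbon dioxide and passes the electrons to the respiratory chain. NAD-dependent isocitrate dehydrogenase, a rate-controlling enzyme of the cycle, is built from the catalytic alpha subunit Idh3a with the beta subunit Idh3b and the gamma subunit Idh3g. The NADP-dependent enzymes Idh1, in the cytosol, and Idh2, in mitochondria, run the same reaction to make or use NADPH and are products of separate genes. Mitochondrial energy metabolism is a long-studied theme in Huntington disease, and neural progenitors of the embryo are known for drawing more on glycolysis than mature neurons do.

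The 12 arrays had median log2 intensities of 7.69 to 7.76 in homozygous and 7.67 to 7.71 in wild-type embryos. Htt, read by a rat probe set, was higher in homozygous embryos by 0.30 ± 0.0556 (log2, SE, n = 6 per group; adjusted p = 0.0408, limma), with no overlap between the groups, and by 0.25 ± 0.0507 without wild type 1 and 2. Of 11 marker genes of the ganglionic eminence, 8 were measured, and all 8 were above the array median in every embryo. Among them, Nkx2-1, a marker of the medial eminence named after its values were seen, differed by 0.16 ± 0.0403 (adjusted p = 0.108, limma), and by 0.11 ± 0.0283 without wild type 1 and 2. All 6 homozygous values of Nkx2-1 lay above every wild-type value, as in 1.16% of all probe sets. The other measured eminence markers had differences of both signs and overlapping groups. These were -0.18 in Dlx5, -0.10 in Isl1, -0.03 in Gsx2, -0.01 in Gad2, 0.03 in Dlx1, 0.06 in Gad1 and 0.07 in Lhx6. Without wild type 1 and 2 they were -0.05, -0.06, 0.00, -0.04, 0.05, 0.06 and 0.06 in that order. Of the 3 measured choroid plexus markers none was above the array median in every embryo. All 3 measured pallial and 2 measured erythroid markers were, as were 4 of 5 endothelial and 2 of 4 microglial markers. Being above the median thus does not tell the labelled tissue from others. Wild type 1 and 2 stood apart from the other embryos: in 20.3% of all probe sets both lay above, or both below, all 10 others. Of the 9 enzymes, 5 did so, and differences between genotypes are therefore given with and without these 2 embryos. Their summed log2 level of 2 measured erythroid markers was 18.58 and 19.69, against 18.05 to 18.53 in the other wild-type embryos. Of these markers, Hbb was highest in wild type 2, at 10.37. In wild type 1 it was 9.54, within the range of the other wild-type embryos and below wild type 6. Alas2 was 9.04 in wild type 1 and 9.32 in wild type 2, both above the other wild-type embryos. Between genotypes, the erythroid sum was 17.72 to 18.28 in homozygous and 18.05 to 19.69 in wild-type embryos, and that of 3 measured pallial markers was 27.38 to 28.05 in homozygous and 27.68 to 29.57 in wild-type embryos. The pallial markers differed by -0.36 ± 0.105 in Neurod6, -0.25 ± 0.0952 in Neurod2 and -0.25 ± 0.0834 in Slc17a7 (log2, SE). Without wild type 1 and 2 these were -0.31, -0.23 and -0.21. Hbb differed by -0.49 ± 0.147 and Alas2 by -0.04 ± 0.107, and by -0.32 and 0.07 without these 2 embryos. All but Alas2 had an unadjusted p under 0.05 in limma, as did 15.0% of all probe sets. So did 2 of 8 eminence, 2 of 5 endothelial, 1 of 3 choroid plexus, 1 of 5 neuron, 1 of 5 progenitor and 0 of 4 microglial markers. The endothelial sum was 42.25 to 42.63 in homozygous and 42.09 to 42.41 in wild-type embryos. No gene of these lists passed the adjusted threshold, and the part of the medial eminence or of these cell types in the results was not tested.

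Idh3g lies on chromosome X, and Ssr4, which makes a subunit of the translocon-associated protein complex of the endoplasmic reticulum, is its neighbour on the opposite strand. In the RefSeq promoter table for GRCr8, 175 bases separate the starts of the 2 genes. The sequence is shown because both genes start from it in opposite directions, which allows a check of whether the neighbour moved with Idh3g. It is chrX:156675483-156675657 on the minus strand, which is the strand of Idh3g, ending at the base before the Idh3g start.
Idh3g-Ssr4 interval: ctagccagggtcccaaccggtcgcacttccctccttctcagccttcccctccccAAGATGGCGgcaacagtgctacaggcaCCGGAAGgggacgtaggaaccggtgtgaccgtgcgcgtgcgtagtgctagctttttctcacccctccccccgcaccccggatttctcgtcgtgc
The capitals mark AAGATGGCG, a YY1 motif that starts 121 bases before the Idh3g start, and CCGGAAG, an ETS family motif that starts 94 bases before it. Both strands were searched, and these matches do not overlap. AAGATGGCG was found in the 175 bases before the start of 0.496% of 33469 promoters in the table, and CCGGAAG in 6.28%. Promoters were listed for 8 of the 9 enzymes, all except Idh3a. CCGGAAG was in 2 of these 8, Idh3b and Idh3g, and AAGATGGCG was in that of Idh3g. The motif of NRF1, searched by its consensus, was in none of the 8 and in 3.26% of all promoters. A match to these letters is a description of the sequence.

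Idh3g had log2 intensities of 12.29, 12.24, 12.29, 12.28, 12.28 and 12.26 in homozygous embryos 1 to 6, against 12.16, 12.14, 12.13, 12.18, 12.20 and 12.14 in wild-type embryos 1 to 6. All 6 homozygous values lay above all 6 wild-type values. The means were 12.27 ± 0.0206 in homozygous and 12.16 ± 0.0287 in wild-type embryos (SD, n = 6 each). The difference was 0.11 ± 0.0200 (log2, SE), a level 8.28% higher in homozygous embryos. Without wild type 1 and 2 the difference was 0.11 ± 0.0202. Over all probe sets, 1.16% had every homozygous value above every wild-type value, and 0.424% passed an adjusted p of 0.05 in limma in either direction (0.226% higher and 0.199% lower). Without wild type 1 and 2, 1.99% passed. Nothing is read from where Idh3g stands among them, since its difference chose the group. The difference was between 0.11 and 0.12 with 1 array left out, 0.08 with arrays centred on their medians, 0.09 after quantile normalization and 0.11 with Eif2s3, another gene on the X chromosome, as a covariate. In bulk tissue, fewer cells of a type and less RNA per cell cannot be told apart. Levels of different genes are not compared here, since probe sets differ in brightness.

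Ssr4, the neighbour, did not pass the threshold and lay the other way. It had 10.31, 10.32, 10.32, 10.33, 10.35 and 10.26 in homozygous embryos, against 10.40, 10.31, 10.32, 10.39, 10.49 and 10.40 in wild-type embryos. The groups overlapped, and all 6 homozygous values were below the wild-type mean. The difference was -0.07 ± 0.0319 (adjusted p = 0.340, limma), and -0.08 ± 0.0317 without wild type 1 and 2. On the other side of Idh3g, the kinase gene Srpk3 differed by 0.06 ± 0.0554 with overlapping groups (adjusted p = 0.631, limma), and by 0.03 ± 0.0632 without wild type 1 and 2.

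**Figure D1:**
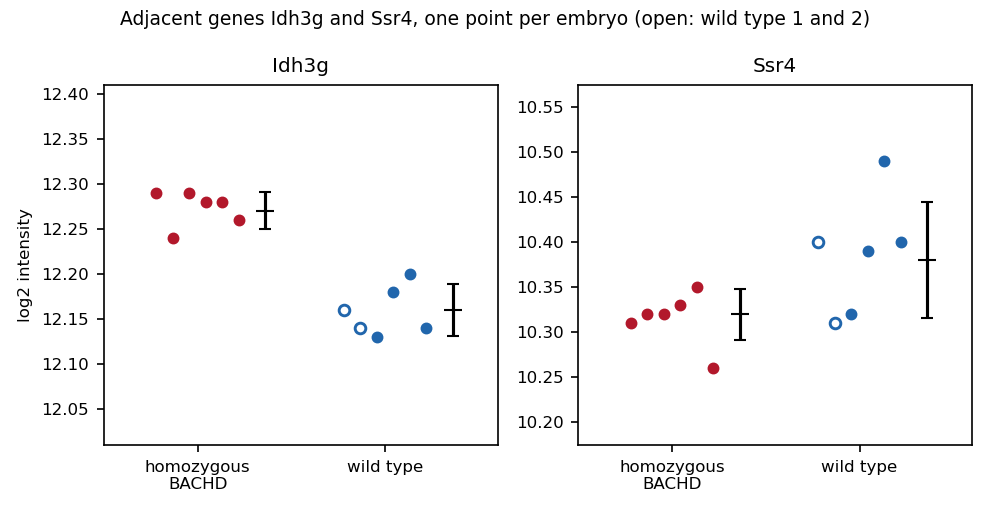
Log2 intensity (vertical axis, both panels spanning the same 0.4 log2 units) of Idh3g and its neighbour Ssr4 in 6 homozygous BACHD embryos (red, left) and 6 wild-type embryos (blue, right). Points are embryos, open points are wild type 1 and 2, and bars are mean ± SD. The Idh3g groups do not overlap, while the Ssr4 groups do and lie the other way round.

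Neither of the other subunits of the NAD-dependent enzyme passed the threshold. Idh3a, the catalytic subunit, had 10.80, 10.84, 10.84, 10.89, 10.93 and 10.77 in homozygous embryos, against 11.14, 11.14, 10.88, 10.88, 10.94 and 10.93 in wild-type embryos. The highest values were those of wild type 1 and 2, and 4 homozygous embryos lay below every wild-type embryo. The difference was -0.14 ± 0.0505 (95% interval -0.25 to -0.03; adjusted p = 0.223, limma), 9.32% lower on the linear scale. It shrank to -0.06 ± 0.0315 without wild type 1 and 2 (adjusted p = 0.371). Idh3b, the beta subunit, had 11.77, 11.77, 11.84, 11.83, 11.83 and 11.76 in homozygous embryos, against 11.90, 11.91, 11.80, 11.82, 11.76 and 11.76 in wild-type embryos. Again wild type 1 and 2 were highest, and the other values of the groups interleaved. The difference was -0.03 ± 0.0306 (adjusted p = 0.701), and 0.01 ± 0.0239 without these 2 embryos, so its sign rests on them.

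The NADP-dependent enzymes did not pass the threshold either. Idh1, the cytosolic enzyme, had 12.36, 12.33, 12.32, 12.38, 12.36 and 12.41 in homozygous embryos, against 12.39, 12.57, 12.43, 12.43, 12.40 and 12.39 in wild-type embryos. In homozygous embryos 5 of 6 values lay below every wild-type value, and homozygous 6 lay within the wild-type range. The difference was -0.08 ± 0.0301 (95% interval -0.14 to -0.01; adjusted p = 0.269, limma), and -0.05 ± 0.0200 without wild type 1 and 2 (adjusted p = 0.205). Idh2, the mitochondrial enzyme, had 11.14, 11.17, 11.12, 11.21, 11.16 and 11.15 in homozygous embryos, against 11.14, 11.16, 11.16, 11.14, 11.14 and 11.15 in wild-type embryos. The difference of 0.01 ± 0.0214 had a 95% interval of -0.04 to 0.06, and was 0.01 ± 0.0218 without wild type 1 and 2. With arrays centred on their medians it was -0.03, a step that moves every difference by the same amount: the median over all probe sets was 0.03, and -0.01 with centring. The 6 wild-type values of Idh2 spanned a narrower range than the homozygous values, with SDs of 0.0302 in homozygous and 0.00841 in wild-type embryos.

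Among the other enzymes of the cycle, Cs, the citrate synthase that opens the cycle, was read by 2 probe sets. The brighter had 12.10, 12.10, 12.12, 12.08, 12.08 and 12.07 in homozygous embryos, against 12.02, 12.10, 12.08, 12.02, 12.04 and 11.99 in wild-type embryos. All 6 homozygous values were above the wild-type mean, and the groups overlapped. The difference was 0.05 ± 0.0228 (adjusted p = 0.341, limma), and 0.06 ± 0.0212 without wild type 1 and 2. The dimmer probe set lay the same way at 0.10 ± 0.0401 (adjusted p = 0.266), with 5 of 6 homozygous values above every wild-type value, and at 0.08 ± 0.0429 without wild type 1 and 2.

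Ogdh, the dehydrogenase subunit of the 2-oxoglutarate dehydrogenase complex, had 11.33, 11.25, 11.20, 11.26, 11.24 and 11.27 in homozygous embryos, against 11.36, 11.35, 11.26, 11.28, 11.22 and 11.18 in wild-type embryos. The groups overlapped throughout, and the difference was -0.01 ± 0.0346 (adjusted p = 0.875, limma), against 0.03 ± 0.0285 without wild type 1 and 2. Suclg1, the alpha subunit of succinyl-CoA ligase, had 10.18, 10.43, 10.40, 10.24, 10.15 and 10.38 in homozygous embryos, against 10.62, 10.96, 10.04, 10.10, 10.27 and 10.26 in wild-type embryos. The wild-type group held both the highest and the lowest values of Suclg1, and its SD was 0.121 in homozygous and 0.354 in wild-type embryos. Its difference was -0.08 ± 0.130 (adjusted p = 0.799), and 0.13 ± 0.0648 without wild type 1 and 2 (adjusted p = 0.353). Mdh2, the mitochondrial malate dehydrogenase that closes the cycle, had 12.60, 12.67, 12.67, 12.66, 12.68 and 12.62 in homozygous embryos, against 12.84, 12.83, 12.61, 12.57, 12.56 and 12.54 in wild-type embryos. Every homozygous value lay between those of wild type 1 and 2 above and at least 3 of the other 4 wild-type values below. The difference was -0.01 ± 0.0513 over all 12 embryos (adjusted p = 0.965), against 0.08 ± 0.0218 without wild type 1 and 2 (adjusted p = 0.0749).

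**Figure D2:**
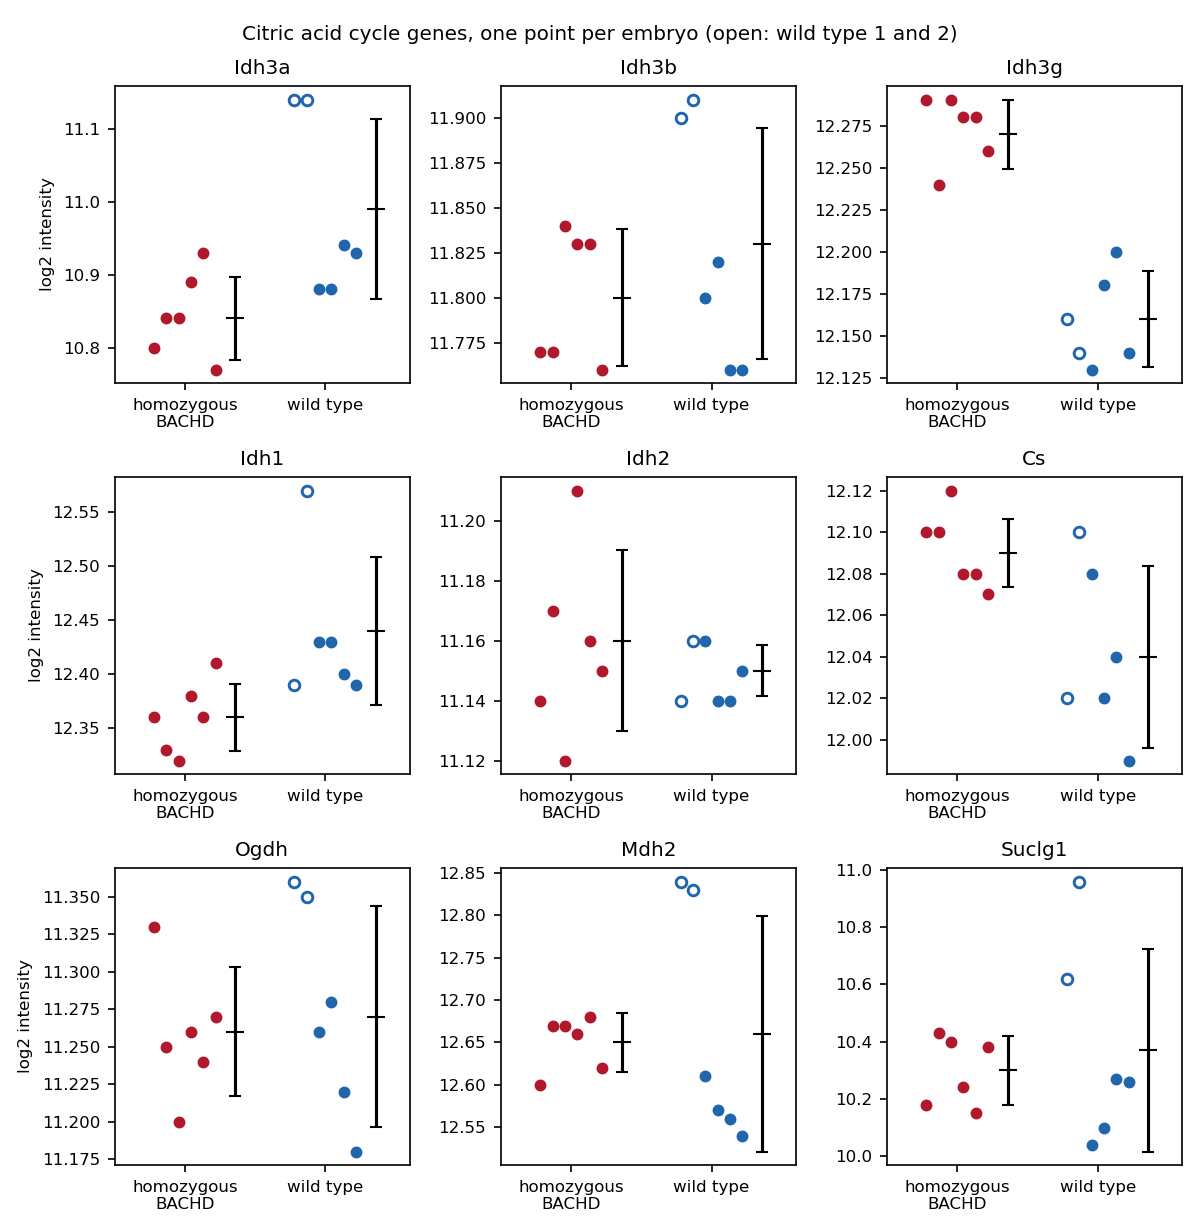
Log2 intensity of the 9 genes (vertical axes differ between panels and do not start at 0) in homozygous BACHD (red, left) and wild-type (blue, right) embryos. Points are embryos, open points are wild type 1 and 2, and bars are mean ± SD (n = 6 each); in Idh3a, Idh3b, Ogdh, Mdh2 and Suclg1 the open points lie above all others.

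Of the 8 genes other than Idh3g, none passed the adjusted threshold in the fit of all 12 embryos. Among them 2 had an unadjusted p under 0.05 in limma, as did 15.0% of all probe sets. The median difference of these 8 was -0.02, beside 0.03 over all probe sets, with 2 genes above 0 and 6 below. All 8 were above the median level of probe sets, where 4181 of 8582 genes were below 0 and the median difference was 0.002. Without wild type 1 and 2 the median of the 8 was 0.02, beside 0.02 over all probe sets, with 6 above 0 and 2 below. The signs of the list thus rested on these 2 embryos. The genes also differed in how widely they spread between embryos of a genotype. The residual SD was 0.0221 for Idh2, 0.0250 for Idh3g and 0.0331 for Cs, and 0.265 for Suclg1, where the median over all genes was 0.0885.

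**Figure D3:**
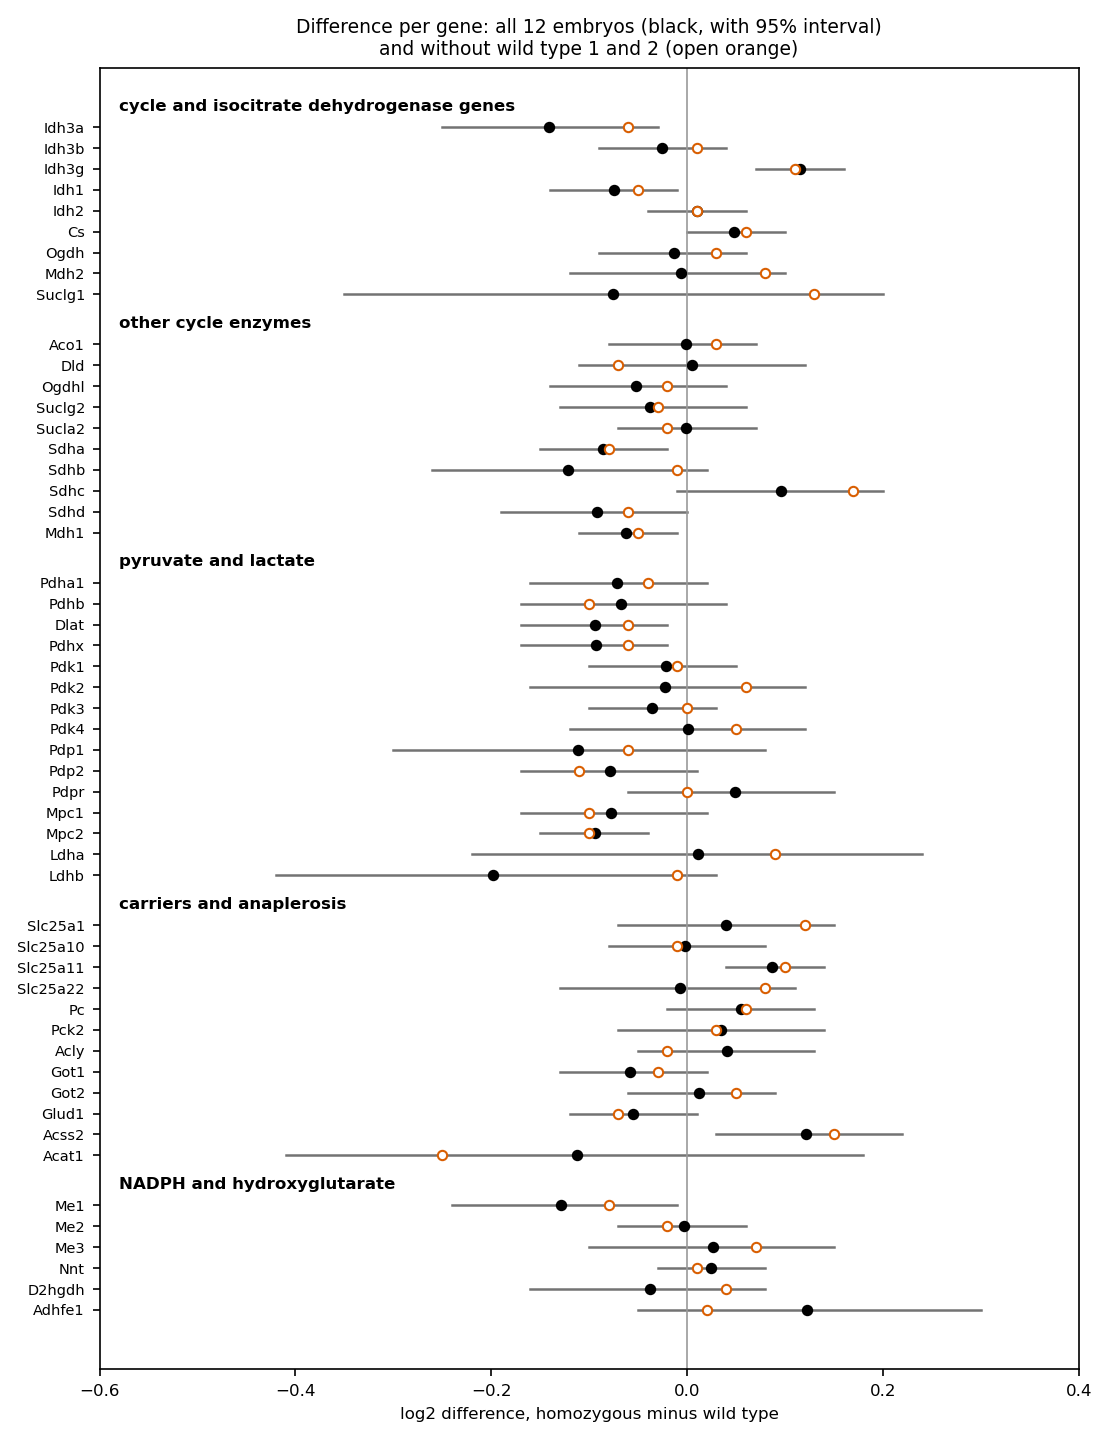
Log2 difference, homozygous minus wild type (horizontal axis), of the 9 genes and of 43 further genes of connected pathways. Black points with 95% intervals are from all 12 embryos and open orange points leave out wild type 1 and 2; Idh3b, Ogdh, Mdh2 and Suclg1 are among the genes whose points lie on opposite sides of 0.

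The enzymes that set wild type 1 and 2 apart were Idh3a, Idh3b, Ogdh, Mdh2 and Suclg1, in each of which both embryos lay above all 10 others. Over all probe sets this held for 9.77%, and for 16.6% when set against the other 4 wild-type embryos alone. The choice of these 2 embryos was made after the values were seen, so the count is a description. The gap between their mean and that of the other 4 wild-type embryos was 0.63 in Suclg1, 0.27 in Mdh2, 0.23 in Idh3a, 0.13 in Ogdh and 0.12 in Idh3b. It was -0.01 in Idh3g and 0.03 in Cs. The homozygous embryos had no values as high as wild type 1 and 2 in these 5 genes.

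**Figure D4:**
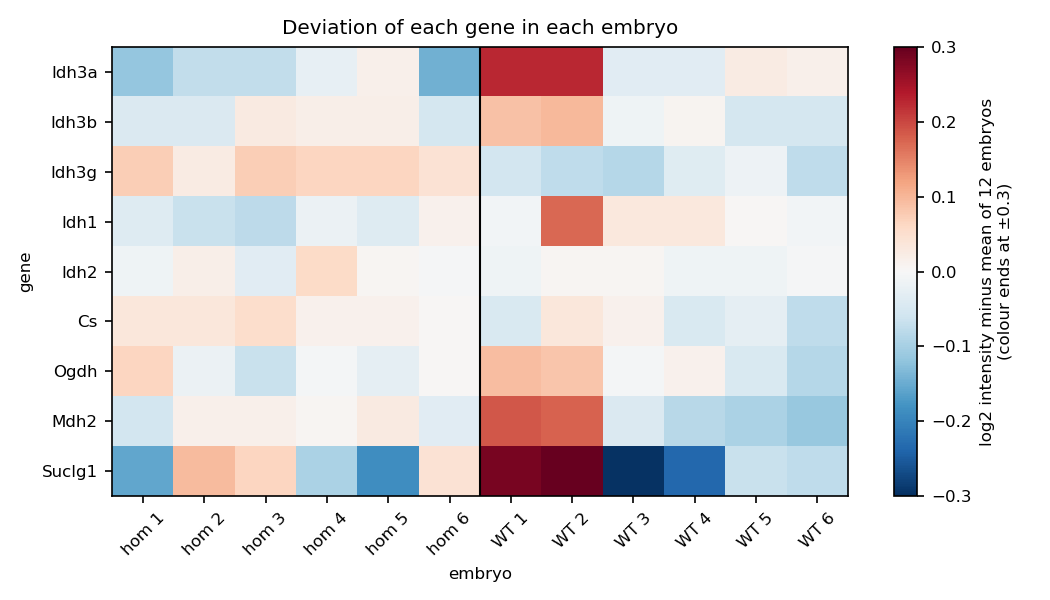
Log2 intensity of each of the 9 genes (rows) in each embryo (columns, 6 homozygous left of the line and 6 wild type right of it), as the deviation from the mean of 12 embryos, with the colour scale ending at 0.3 either way. The columns of wild type 1 and 2 are red in Idh3a, Idh3b, Ogdh, Mdh2 and Suclg1, and the row of Idh3g splits at the line between genotypes.

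Sequence before the start is shown for the pair of genes with the largest gap, Mdh2 and Suclg1, since they stood high in the same embryos. The Mdh2 stretch is chr12:26543842-26544016, minus strand, and that of Suclg1 is chr4:106866154-106866328, plus strand (RefSeq, GRCr8), each ending at the base before the start.
Mdh2: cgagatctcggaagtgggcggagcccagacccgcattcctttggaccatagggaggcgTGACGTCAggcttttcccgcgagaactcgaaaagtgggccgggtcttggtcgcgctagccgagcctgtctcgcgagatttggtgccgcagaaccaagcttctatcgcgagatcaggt
Suclg1: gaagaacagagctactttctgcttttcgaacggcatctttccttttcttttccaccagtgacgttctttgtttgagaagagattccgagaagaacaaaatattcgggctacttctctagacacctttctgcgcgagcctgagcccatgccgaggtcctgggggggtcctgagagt
The capitals mark the cyclic AMP response element core TGACGTC, which matched on both strands and overlaps itself there. It was found in 2 of the 8 listed promoters, Mdh2 and Ogdh, and in 2.34% of all 33469. Suclg1 held none of the motifs searched. The guanine and cytosine share of these 175 bases was 60.6% for Mdh2, 49.1% for Suclg1 and 64.0% for the Idh3g-Ssr4 interval, with a median of 52.6% over all promoters.

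To see which enzymes varied together apart from genotype, deviations from the genotype means were correlated over the 12 embryos for all 36 pairs of the 9 genes. The highest Pearson r was 0.91 for Idh3a and Mdh2 (permutation p = 0.00934, adjusted 0.117; Spearman rho 0.81, permutation p = 0.0167, adjusted 0.301). For Idh3b and Mdh2, r was 0.88 (permutation p = 0.00340, adjusted 0.117; rho 0.81, permutation p = 0.00615, adjusted 0.221). For the subunits Idh3a and Idh3b, r was 0.84 (permutation p = 0.00973, adjusted 0.117; rho 0.69, permutation p = 0.0355, adjusted 0.306). Values were adjusted over the 36 pairs by Benjamini-Hochberg, and no pair passed 0.05, with 4 below it for Pearson r before adjustment. In each of these 3 pairs the embryos farthest from the median of the first gene named were wild type 1 and 2. Without them, but with genotype means still taken over all 12 embryos, r was 0.72, 0.74 and 0.62 in that order.

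With genotype means also taken anew over the 10 remaining embryos, r was 0.42 for Idh3a and Mdh2 (permutation p = 0.279), 0.65 for Idh3b and Mdh2 (permutation p = 0.0909) and 0.44 for Idh3a and Idh3b (permutation p = 0.269). Each adjusted p was 0.915. The relations in 12 embryos thus rested on wild type 1 and 2. For the gamma subunit Idh3g, r with the 8 other genes ran from -0.37 to 0.06 over 12 embryos and from -0.35 to 0.35 over 10. For Pearson r, the lowest adjusted permutation p among the pairs of Idh3g was 0.590 over 12 embryos. For Spearman rho it was 0.306, with Idh2 (rho -0.60, permutation p = 0.0368). Over 10 embryos that rho was -0.64 (permutation p = 0.0288, adjusted 0.750).

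**Figure D5:**
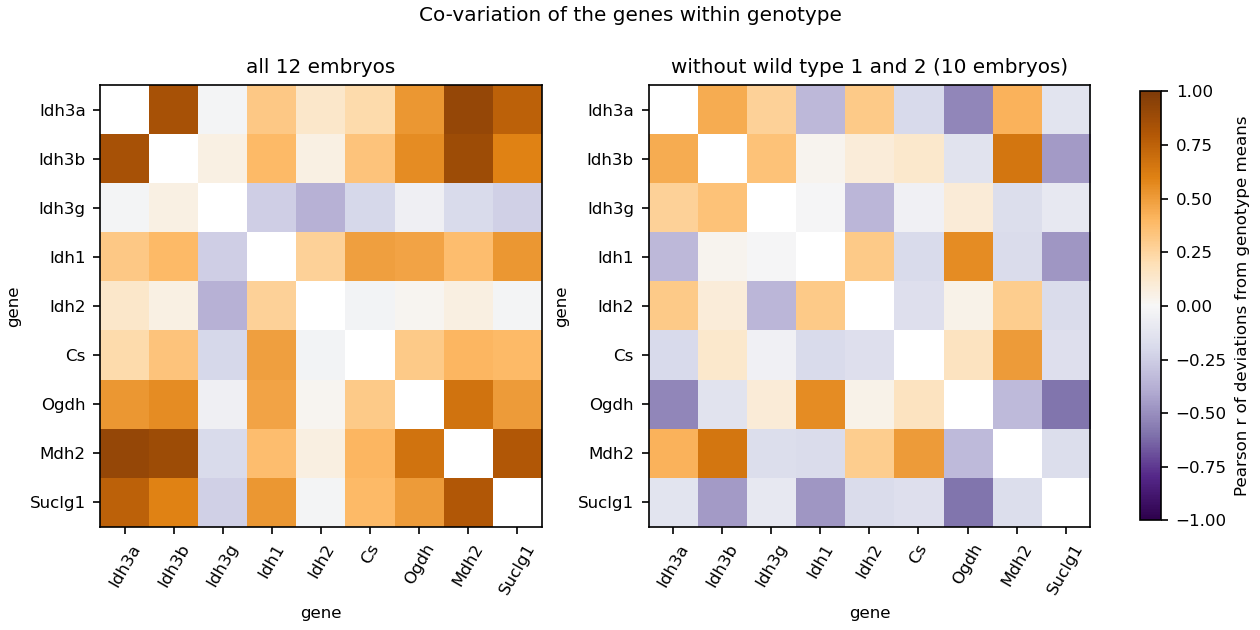
Pearson r (colour) between the deviations of each pair of genes from their genotype means, over all 12 embryos (left) and over the 10 embryos without wild type 1 and 2 (right). The dark block of Idh3a, Idh3b, Mdh2 and Suclg1 on the left (r from 0.60 to 0.91) is weaker on the right, where Suclg1 has r below 0 with the other three.

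The remaining enzymes of the cycle were taken from a list of 13 genes, of which 10 were measured. None passed the adjusted threshold in limma, where 0.424% of probe sets did, and 2 of 10 had an unadjusted p under 0.05, where 15.0% of probe sets did. The median difference was -0.04, beside 0.03 over all probe sets, with 8 of 10 genes below 0, where 10276 of 29214 probe sets were. All 10 were above the median level of probe sets, where 4181 of 8582 genes were below 0 and the median difference was 0.002. Mdh1, the cytosolic malate dehydrogenase, had 11.70, 11.71, 11.68, 11.76, 11.77 and 11.70 in homozygous embryos, against 11.79, 11.80, 11.75, 11.78, 11.81 and 11.77 in wild-type embryos. Of the homozygous values 4 lay below the whole wild-type range, at a difference of -0.06 ± 0.0224 (adjusted p = 0.225, limma), and -0.05 ± 0.0231 without wild type 1 and 2.

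The subunits of succinate dehydrogenase, which is also complex II of the respiratory chain, had differences of both signs. Sdha, the flavoprotein, differed by -0.09 ± 0.0317 (adjusted p = 0.235, limma), and by -0.08 ± 0.0347 without wild type 1 and 2. The membrane anchor Sdhd differed by -0.09 ± 0.0447 (adjusted p = 0.349), and by -0.06 ± 0.0406 without them. Sdhb, the iron-sulfur subunit, had the difference farthest from 0 of the 4 subunits, at -0.12 ± 0.0642 (adjusted p = 0.382), and -0.01 ± 0.0280 without wild type 1 and 2. Sdhc, the other membrane anchor, had 12.26, 12.35, 12.38, 12.33, 12.34 and 12.24 in homozygous embryos, against 12.34, 12.40, 12.16, 12.11, 12.16 and 12.14 in wild-type embryos. Its homozygous values exceeded those of wild type 3 to 6 and overlapped wild type 1 and 2. The difference was 0.10 ± 0.0478 (adjusted p = 0.361), and 0.17 ± 0.0269 without wild type 1 and 2, where it passed (adjusted p = 0.0108). Over 19 other settings its adjusted p ranged from 0.0108 to 0.642. Sdhb and Sdhc are named after their values were seen.

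Genes listed around the entry of pyruvate into the cycle lay mostly lower in homozygous embryos without any passing the threshold. The list also holds the kinases Pdk1 to Pdk4 and the lactate dehydrogenases Ldha and Ldhb, so its counts are not of entry enzymes alone. Of these, Pdk1, Pdk2, Pdk3 and Ldhb were below 0, and Pdk4 and Ldha were above it. All 15 listed genes were measured, 3 had an unadjusted p under 0.05 in limma (15.0% of all probe sets did), 12 were below 0 and the median was -0.07, beside 0.03 over all probe sets. Over all probe sets, 10276 of 29214 were below 0. Of the listed genes, 14 were above the median level of probe sets, and 12 of these 14 were below 0. At that level 4181 of 8582 genes were below 0 and the median difference was 0.002. Without wild type 1 and 2 again 12 of the listed genes were below 0, beside 10960 of 29214 probe sets. Their median was then -0.04, beside 0.02 over all probe sets. Mpc2, a subunit of the mitochondrial pyruvate carrier, had 10.48, 10.51, 10.53, 10.49, 10.53 and 10.55 in homozygous embryos, against 10.57, 10.61, 10.61, 10.64, 10.64 and 10.58 in wild-type embryos. The groups did not overlap, as in 1.86% of all probe sets. The difference was -0.09 ± 0.0245 (adjusted p = 0.114, limma), and -0.10 ± 0.0246 without wild type 1 and 2 (adjusted p = 0.0534). It passed with arrays centred on their medians, at -0.13 ± 0.0260 (adjusted p = 0.0320), and over 19 other settings its adjusted p ran from 0.0320 to 0.218.

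Of the pyruvate dehydrogenase complex, Dlat, the acetyltransferase, differed by -0.09 ± 0.0338 (adjusted p = 0.226, limma), and its second probe set by -0.10 ± 0.0349. Pdhx, which anchors the E3 subunit to the complex, differed by -0.09 ± 0.0348 (adjusted p = 0.236). In both genes wild type 1 and 2 lay above all other embryos, and without them each difference was -0.06.

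Among carriers and enzymes that feed or drain the cycle, 12 of 15 listed genes were measured and none passed, with 2 under an unadjusted p of 0.05 in limma, beside 15.0% of all probe sets. The median was 0.02, beside 0.03 over all probe sets, and both were -0.01 with arrays centred on their medians. All 12 were above the median level of probe sets, where the median difference was 0.002 over 8582 genes. Slc25a11, the mitochondrial carrier that exchanges 2-oxoglutarate for malate, had a lowest, median and highest value of 11.97, 11.99 and 12.05 in homozygous embryos, against 11.85, 11.92 and 11.95 in wild-type embryos. The groups did not overlap, as in 1.86% of all probe sets. The difference was 0.09 ± 0.0227 (adjusted p = 0.115, limma), and 0.10 ± 0.0227 without wild type 1 and 2, where it passed (adjusted p = 0.0439). Over 19 other settings its adjusted p ranged from 0.0439 to 0.375. Acss2, which makes acetyl-CoA from acetate, differed by 0.12 ± 0.0440 (adjusted p = 0.225), with 5 of 6 homozygous values above every wild-type value, and by 0.15 ± 0.0471 without wild type 1 and 2. Glud1, the glutamate dehydrogenase that supplies 2-oxoglutarate, differed by -0.05 ± 0.0293 (adjusted p = 0.391), and by -0.07 ± 0.0280 without them.

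Of 9 genes for other routes of NADPH and for hydroxyglutarate, 6 were measured and none passed, with 1 under an unadjusted p of 0.05 in limma, beside 15.0% of all probe sets. Me1, the cytosolic malic enzyme, differed by -0.13 ± 0.0540 (adjusted p = 0.288, limma) and by -0.08 ± 0.0544 without wild type 1 and 2. Adhfe1, a hydroxyacid-oxoacid transhydrogenase, differed by 0.12 ± 0.0824, and by 0.02 ± 0.0742 without these 2 embryos. Nnt, which passes hydride between NADH and NADP in mitochondria, differed by 0.02 ± 0.0276, and by 0.01 ± 0.0290 without them. The median of the list was 0.01, beside 0.03 over all probe sets, and -0.03 beside -0.01 with arrays centred on their medians.

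The genes whose deviations from the genotype means ran most like those of Idh3g over the 12 embryos were the phosphatase gene Plpp6 (Pearson r 0.90), Spata19 (0.84), Cd2bp2 (0.84), the ribosomal protein gene Rpl3 (0.83) and the cell cycle kinase gene Cdk2 (0.83). Their r without wild type 1 and 2 was 0.90, 0.84, 0.90, 0.89 and 0.82. These are the extremes of 14505 genes on shared arrays and carry no test. The deviations of Idh3g were small, with a residual SD of 0.0250 where the median over all genes was 0.0885. The genes that ran most against Idh3g were Ceacam4, Tas2r123, Or11h4c, Vom2r56 and Dnajc5b, with r from -0.83 to -0.78. All 5 lay below the array median in every embryo, as did Spata19 among the 5 genes most like Idh3g.

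Of the neighbours of the other subunit genes, Cib2 and Acsbg1 flank Idh3a and were measured. Cib2, a calcium-binding protein, differed by -0.05 ± 0.0511 (adjusted p = 0.664, limma) and Acsbg1, an acyl-CoA synthetase, by -0.01 ± 0.0436 (adjusted p = 0.961). Without wild type 1 and 2 these were -0.01 ± 0.0562 for Cib2 and 0.05 ± 0.0329 for Acsbg1. In Acsbg1, as in Idh3a, wild type 1 and 2 were above all 10 other embryos.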

How the data were processed

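The authors deposited log2 intensities, 1 per probe set and array. Per the submitters' processing notes, Partek 6.4 and RMA were used, in an order and with settings not given in the sources used here. The log2 scale was read from the values. Such normalization makes arrays alike and can hide a shift of all genes. Arrays have no sequencing depth; the number of embryos limits the precision.

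Groups came from the labels. Each of 29214 probe sets was fitted with limma 3.58.1 in R 4.3.3 (lmFit, eBayes with an intensity trend, genotype as the only factor, 2-sided), with Benjamini-Hochberg adjustment over all of them and a threshold of 0.05. Differences are homozygous minus wild type. Probe sets were named by the platform annotation, and 15279 of 15310 with 1 symbol matched the RefSeq table of GRCr8, which was used for names, neighbours and promoters. Which build the array was designed on is not given in the sources used here. Correlations used 100000 permutations within genotype. The fit was tested on simulated data of this comparison (29214 probe sets): of 50 probe sets planted at each size, it called 4% at a log2 change of 0.1, 30% at 0.2, 68% at 0.3 and 84% at 0.5, with 12 false calls. Noise was drawn independently for each probe set and array, without embryos that stand apart as wild type 1 and 2 do. The number of false calls in the real arrays was therefore not measured.

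The genes, lists and settings were chosen with earlier results of these data known. The rule for names took all 9 enzymes, any gene past the threshold and the 3 with the smallest p in each wider list, the 5 genes most and least like Idh3g, the neighbours of the subunit genes, and Htt. Alternatives were a replicate block, median centring, quantile normalization, no intensity trend, a filter on dim probe sets, Eif2s3 as a covariate, averaging a gene's probe sets and leaving out each array. Leaving out wild type 1 and 2 was chosen after seeing the data. A covariate of Y-linked genes was not run, since none of the 5 listed had a probe set with 1 symbol here. Replicates were separate embryos.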

Additional observations from a re-analysis of the deposited data

Results flagged for a closer look

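In 56 groups of 6 embryos checked for a value far from the others, 4 had one by Dixon's test at the 95% level, and chance flags about 1 in 20. Wild type 2 was far above the other wild-type embryos in Idh1, at 12.57 with the next at 12.43, and in Sdhd, at 10.75 with the next at 10.58. Wild type 3 was far above in Nnt, at 10.83 with the next at 10.74. Wild type 6 was far above in Srpk3, at 6.86 with the next at 6.65.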

How the results depend on the processing

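The number of probe sets past the threshold was 124, and it was 18 with a replicate block, 302 with centred arrays, 3 without an intensity trend, 255 for probe sets above the median level, 29 with Eif2s3 as a covariate and 582 without wild type 1 and 2. With 1 array left out it ran from 4 to 200: leaving out wild type 1, 2, 3, 4, 5 or 6 gave 70, 86, 200, 20, 4 and 14, and leaving out homozygous 1, 2, 3, 4, 5 or 6 gave 10, 9, 9, 4, 4 and 59. The count of the 9 enzymes was 1, Idh3g, from which nothing is read since its difference chose the group. The count was 0 with the replicate block, centred arrays, quantile normalization, no intensity trend or Eif2s3. With 1 array left out it was 1 in 3 of 12 fits and 0 in the others. The difference of Idh3g was 0.115 with the replicate block, 0.077 with centred arrays and 0.093 after quantile normalization. It was 0.115 without an intensity trend and 0.113 with Eif2s3, and with 1 array left out between 0.109 and 0.123. In the wider lists 0 genes passed, 1 with centred arrays and 2 without wild type 1 and 2; at an unadjusted p under 0.05 there were 8 of 43, beside 15.0% of all probe sets. Signs turned without wild type 1 and 2 in Idh3b (0.013), Ogdh (0.029), Mdh2 (0.082) and Suclg1 (0.134), and that of Idh2 with centred arrays (-0.028), which moves every difference alike. With 1 array left out, Ogdh ranged from -0.033 to 0.005, Mdh2 from -0.03 to 0.031 and Suclg1 from -0.143 to 0.042. Idh3a, Idh1 and Cs kept their sign in all 20 settings. The cause of these changes was not tested. Under every scaling 0 of 36 pairs of enzymes passed. Replicate numbers did not pair the embryos: deviations of same-numbered embryos correlated between -0.08 and 0.26, and 3 of 12 correlated best with their own number.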
